A study of Mus musculus with 13 samples.

Results

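The maturation of NSN oocytes was followed in the libraries of 6 single mouse oocytes, 3 NSN GV oocytes and 3 NSN-MII oocytes, out of 13 libraries in the series. Each library was made from 1 oocyte freed of its zona. The 6 were chosen by their labels alone, and no library of an SN oocyte entered the comparison, apart from a test at the end that set the change in NSN oocytes against that in SN oocytes. NSN and SN (non-surrounded and surrounded nucleolus) are the chromatin states of the germinal vesicle (GV), the large nucleus of an oocyte arrested in prophase I, in which chromatin either is spread through the nucleus or forms a ring around the nucleolus. The donors of both groups were C57BL/6 females, 3–4 weeks of age, primed with PMSG for 48 h. All oocytes, the GV group and the MII group alike, were injected with mRNA for FBL–GFP and H2B-mCherry, held at the GV stage in 10 μM Cilostamide for 6 h, and sorted as NSN by the pattern of FBL–GFP. NSN GV oocytes were taken at that point, and NSN-MII oocytes after release from the inhibitor and maturation in vitro to metaphase of the second division. An NSN-MII oocyte is thus one that completed maturation, and oocytes that stopped on the way were not sampled. Nothing tied a GV to an MII oocyte or named the donor of each, so oocytes of a group may share a donor, and the errors and p-values below measure the spread between single oocytes only.

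NSN oocytes still transcribe, and transcription ceases as oocytes pass to the SN state. Meiotic maturation itself relies mainly on mRNAs stored before it. Some of these gain a longer poly(A) tail and are translated after meiosis resumes, often through the cytoplasmic polyadenylation element (CPE), a short U-rich sequence near the 3′ end that CPEB1 binds. Many others lose their tails through the CCR4–NOT deadenylase, which BTG4 brings to translated mRNAs, and are cleared before the embryonic genome is switched on. cDNA was made with SMART-seq2, which primes on poly(A) tails, so the amount of an mRNA and the length of its tail cannot be told apart in these data. All levels are relative to the library: CPM are a gene's counts scaled to a common library size by TMM, and a gain of 1 mRNA and a loss of the others cannot be told apart.

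Each library held between 7364259 and 8348681 counts. At least 1 count was found for 13068 ± 332 genes (SD, n = 3) in NSN GV and 12206 ± 531 genes (SD, n = 3) in NSN-MII oocytes (exact permutation test, two-sided p = 0.1, the smallest that 3 against 3 allow). By Euclidean distance of log2 CPM, libraries of different stages lay 182 apart on average, and libraries of the same stage 82.9 (GV) and 81.9 (MII). The third NSN-MII oocyte stood somewhat apart, 97.1 and 90.0 from the others, which were 58.5 from each other. The 12 oocyte markers were present in each library, at a summed level of 30480 to 38890 CPM at GV and 27110 to 31560 CPM at MII. The 24 markers of cumulus and granulosa cells summed to 70.5 to 78.1 CPM at GV and 103 to 193 CPM at MII, most of it Cyp19a1. Of the 5 that could be tested, Cyp19a1 (1.24) and Kitl (1.93) rose on the log2 scale. Cyp19a1 was not called without the first NSN GV oocyte, and Kitl was not called with library totals or without the third NSN GV or the first or second NSN-MII oocyte. Without Cyp19a1 the sums were 20.5 to 31.7 and 24.8 to 32.1 CPM, and 5 of the 24 markers (Foxl2, Fst, Ereg, Ptx3 and Lhcgr) were at 0 in all 6 libraries. With those, 15 were under 1 CPM in every library. Others were present, among them Inha at up to 4.76 CPM and Cyp11a1 at up to 5.91 CPM, both in the second NSN GV oocyte. The part of such cells in the results was not tested. Of 5 blood cell markers, 4 were at 0 throughout and none passed 1 CPM.

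Maturation of NSN oocytes came with changes in 5359 genes, and the falls were much deeper than the rises. Of 10633 genes tested, 2309 rose (21.7%) and 3050 fell (28.7%) at an adjusted p under 0.05 in the quasi-likelihood fit of edgeR (Benjamini-Hochberg adjustment), 50.4% in all. The remaining 5274 were not called. Among genes that fell, 2147 of 3050 fell at least 4-fold and 569 at least 16-fold, whereas among genes that rose 184 of 2309 reached 4-fold and 0 reached 16-fold. The median log2 fold change was −2.68 over genes that fell, 1.39 over genes that rose and −0.08 over all genes tested. In 2291 of the 2309 genes that rose and 3002 of the 3050 that fell, the GV and MII oocytes did not overlap, as in 6729 of all 10633 genes tested (63.3%). With library totals in place of TMM, the median of all genes moved by −0.28, and 1552 of 4868 called genes (31.9%) were higher at MII, against 43.1% with TMM. All directions given here are therefore relative to the TMM scale.

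**Figure D1:**
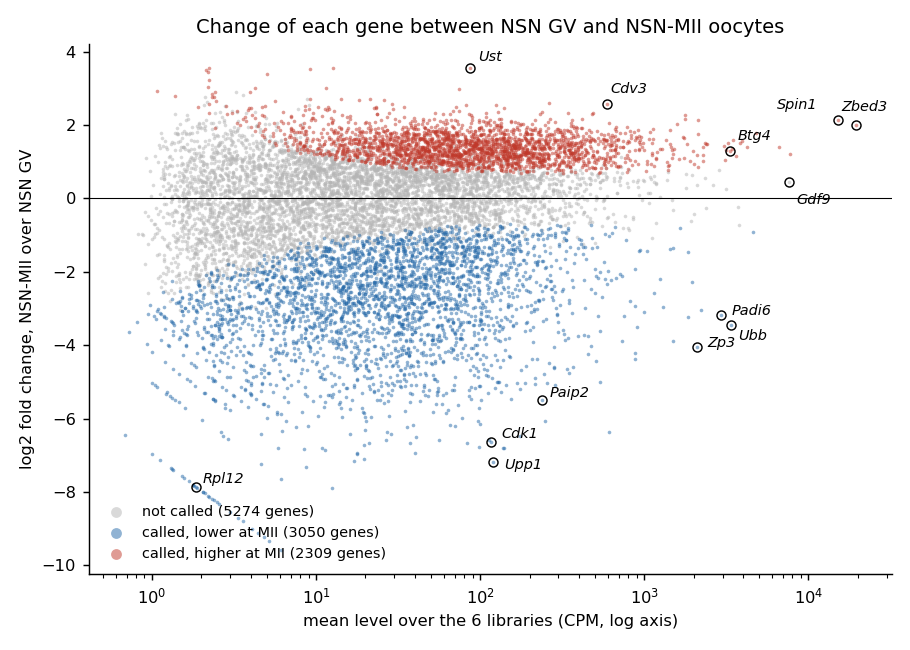
Each point is 1 of the 10633 genes tested, with its mean level over the 6 libraries (CPM, log axis) against its log2 fold change, NSN-MII over NSN GV. Red points (2309) rose, blue points (3050) fell and grey points (5274) were not called; the blue cloud reaches −9.58 on the log2 scale and the red cloud 3.55.

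The contents of the libraries shifted accordingly. Genes that fell held 36.4%, 41.3% and 34.7% of the counts in the 3 NSN GV oocytes and 8.14%, 7.38% and 4.92% in the 3 NSN-MII oocytes. Genes that rose held 29.7%, 27.1% and 32.8% at GV and 60.3%, 62.6% and 69.0% at MII. These classes were defined on the same libraries, so the shares describe the size of the shift and do not test it. The 10 most abundant genes held 5.83%, 6.60% and 5.88% of counts at GV and 8.92%, 9.81% and 12.1% at MII.

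**Figure D2:**
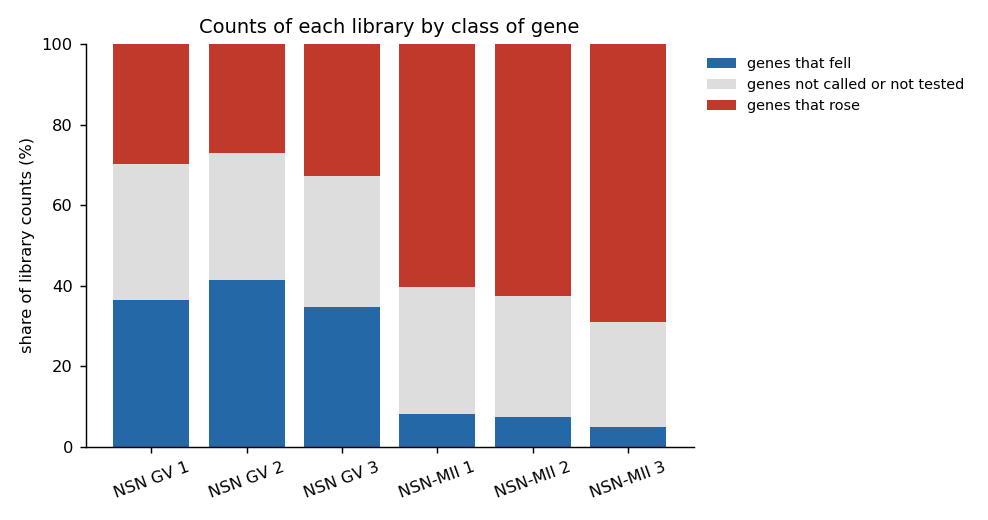
Bars give the share (%) of each library's counts in genes that fell (blue), in genes that rose (red) and in all other genes (grey). The blue share drops from at least 34.7% in NSN GV to at most 8.14% in NSN-MII oocytes, and the red share grows to 60.3% or more.

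The deepest falls among genes with at least 20 CPM on average were those of Upp1, Ppie, Rpl19, Psmb7, Rps27a, Ndufa9, Mrpl33, Rps27, Cdk1 and Psmc3ip, with log2 fold changes from −7.18 to −6.59. Upp1 (chromosome 11, 9118103 to 9136170), uridine phosphorylase, was at 242, 267 and 208 CPM in the 3 NSN GV oocytes and at 1.94, 2.14 and 0.69 CPM in the 3 NSN-MII oocytes (log2 fold change −7.18, standard error 0.44, adjusted p = 1.37e-05). No NSN-MII oocyte came near the lowest NSN GV oocyte. Cdk1 (chromosome 10, 69335146 to 69352938), the kinase subunit of M-phase promoting factor, was at 205, 264 and 222 CPM at GV and 1.70, 1.13 and 4.31 CPM at MII (log2 fold change −6.64, standard error 0.50, adjusted p = 1.37e-05). Although its mRNA was at most 4.31 CPM in any NSN-MII oocyte, its mean at GV was 230.1 ± 30.3 CPM (SD, n = 3), and the protein was not measured. Ppie, a spliceosomal cyclophilin, fell from 79.3 to 0.618 CPM (log2 fold change −6.94). Psmc3ip, which assists meiotic recombinases, fell from 52.6 to 0.506 CPM (log2 fold change −6.59).

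The steepest rises by the same rule were those of Ust, Plag1, Fam172a, Med13, Wtap, Cdv3, Tsc22d2, Efna5, Myef2 and Ric1. Ust (chromosome 10, 8204756 to 8518825), a uronyl sulfotransferase of the Golgi, was at 25.3, 12.9 and 2.70 CPM at GV and 77.3, 102 and 304 CPM at MII (log2 fold change 3.55, standard error 0.74, adjusted p = 0.00282). The stages did not overlap, but the third NSN-MII oocyte alone accounted for most of the MII mean. Plag1 (chromosome 4, 3900996 to 3938423), a zinc finger transcription factor, went from 8.41, 14.7 and 27.2 CPM at GV to 116, 117 and 162 CPM at MII (log2 fold change 2.97, standard error 0.43, adjusted p = 0.000355). Wtap, a subunit of the m6A writer complex, went from 68.6, 45.8 and 110.1 CPM at GV to 374, 432 and 542 CPM at MII (log2 fold change 2.59). Cdv3 showed the tightest values of this group, 158, 195 and 159 CPM at GV and 1082, 948 and 1028 CPM at MII (log2 fold change 2.58, standard error 0.27, adjusted p = 4.34e-05).

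In the machinery of mRNA decay, 18 of 38 genes tested rose and 4 fell, against 21.7% and 28.7% of all genes, and the median log2 fold change was 1.05. Btg4 (chromosome 9, 51060901 to 51119875), the adaptor that recruits CCR4–NOT, had the most counts of this list, 1460.3, 2248 and 2058 CPM at GV and 3873, 4113 and 6241 CPM at MII (log2 fold change 1.30, standard error 0.31, adjusted p = 0.0056). Every NSN-MII oocyte lay above every NSN GV oocyte. The deadenylase Cnot7 (chromosome 8, 40492540 to 40515847) was at 237, 365 and 462 CPM at GV and 971, 1083 and 1787 CPM at MII (log2 fold change 1.85, standard error 0.35, adjusted p = 0.00171). Its paralog Cnot8 and the deadenylases Cnot6 and Cnot6l rose as well, by log2 fold changes of 1.41, 1.76 and 1.48, as did the other deadenylase of the cytoplasm, with 1.68 for Pan2 and 2.21 for Pan3. Dcp1a (chromosome 14, 30479535 to 30527063), the activator of the decapping enzyme, was at 677, 363 and 1307 CPM at GV and 2723, 3193 and 4484 CPM at MII (log2 fold change 2.15, standard error 0.44, adjusted p = 0.00264), with no overlap. Smg1, a kinase of nonsense-mediated decay, had the largest rise of the list (log2 fold change 2.22). The 4 genes that fell were Cnot10, a CCR4–NOT subunit that is no deadenylase itself, from 94.8 to 6.55 CPM (log2 fold change −3.86), Pabpn1l (−1.95), the deadenylase Parn (−1.69) and Cnot9 (−0.96). Cnot1, the scaffold of the complex, was at 129 CPM at GV and 64.1 CPM at MII and was not called.

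Genes of mRNA storage and translational control had 8 rises (27.6%) and 7 falls (24.1%) of 29, near the 21.7% and 28.7% of all genes, with a median log2 fold change of 0.14, less than the shift between the TMM and library total scales. Those that rose included Dazl, a germ cell RNA-binding protein that activates translation, at 654, 747 and 638 CPM at GV and 1365, 1492 and 1807 CPM at MII (log2 fold change 1.19, standard error 0.26, adjusted p = 0.00376). The poly(A) polymerase Papd4 (log2 fold change 2.06) and the 3′ UTR binding proteins Elavl2 (1.79), Pum2 (1.79) and Igf2bp3 (1.77) rose too. Those that fell included the repressor of poly(A)-binding protein Paip2, from 469 ± 81.4 CPM (SD, n = 3) to 10.3 ± 1.38 CPM (SD, n = 3) (log2 fold change −5.50, standard error 0.33, adjusted p = 1.37e-05), Zar1l (−4.67), the oocyte poly(A)-binding protein Pabpc1l (−3.01), and the storage proteins Ybx2 (−1.99) and Patl2 (−1.97). Cpeb1 was at 984, 1164 and 1545 CPM at GV and 1081, 1095 and 1651 CPM at MII. These ranges overlapped, and its log2 fold change of 0.05 took either sign depending on the setting.

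Of 10 stored mRNAs known to be translated during maturation, 8 rose, against 21.7% of all genes, among them Btg4, Cnot7, Cnot6l, Dcp1a and Dazl. Ccnb1 (chromosome 13, 100778650 to 100786570), cyclin B1, was at 1319, 1749 and 1428 CPM at GV and 2506, 2907 and 3722 CPM at MII (log2 fold change 1.02, standard error 0.28, adjusted p = 0.0115). Fbxo43, the inhibitor of the anaphase-promoting complex that holds the egg at MII, rose by a log2 fold change of 1.51 and the spindle factor Tpx2 by 0.91, the latter called in all fits but the one without the first NSN GV oocyte. Mos and Plat were not called. Mos, the kinase upstream of MAPK, was at 725, 1142 and 815 CPM at GV and 751, 756 and 416 CPM at MII, and Plat, tissue plasminogen activator, at 1837, 2395 and 2621 CPM at GV and 2862, 2773 and 3253 CPM at MII.

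For 4 of these 10 the annotated 3′ UTR (GENCODE M21, GRCm38) held TTTTAT or TTTTAAT, 2 forms of the CPE, within its last 100 bases. Of these 4, Plat was not called. Ccnb1, Cnot6l, Dazl, Tpx2 and Fbxo43 rose and held neither form there. The windows below are shown because they carry the element that was more frequent in genes that rose than in genes that fell. Capitals mark the CPE and, where it lies in the window, the cleavage signal AATAAA; the windows are read on the mRNA strand from the last, 3′ UTR exon of each gene, and Plat lies at chromosome 8, 22757727 to 22782844.

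Btg4: agataaatccctTTTTATgtctttttaaaa
Cnot7: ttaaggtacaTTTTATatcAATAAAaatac
Dcp1a: aaatatatttTTTTAATAAAatttcaaaac
Plat: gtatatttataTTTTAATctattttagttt

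The element starts 67 bases from the transcript end in Btg4, 89 in Plat and 20 in Cnot7, just before the cleavage signal. In Dcp1a, which holds 2 copies, the one shown starts 43 bases from the end and overlaps the signal. For comparison, the last 30 bases of 4 mRNAs with falls of over 6 on the log2 scale are shown, picked as examples from a larger set of such genes. They hold the cleavage signal (capitals), and neither form of the CPE stood in the last 100 bases of their annotated 3′ UTRs, which in Upp1 and Rps27a are shorter than that. Rpl19 and Ndufa9 also fell by over 6 but held no AATAAA in their last 30 bases. As the CPE stood in 20.4% of ends over all genes, its absence does not set these 4 apart. In the first NSN GV oocyte, 1896 counts of Cdk1 and 1876 of Psmb7 gave 222.58 and 213.86 FPKM, which are scaled by length. The annotated transcripts of Cdk1 and Psmb7 have 4375 and 1160 bases. The Cdk1 mRNA counted may thus be shorter, with another end.

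Cdk1: ggAATAAAaggattattcacaaacagaaaa
Upp1: aactcctgggcAATAAAtctattttttcat
Psmb7: aaataaataAATAAAaagacaaaaaactta
Rps27a: gtatgcgttAATAAAaagaaggaactcgta

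Over all genes, these ends differed between rises and falls. TTTTAT or TTTTAAT, searched on the mRNA strand only, stood in the last 100 bases of 2026 of 9935 annotated 3′ UTRs of at least that length (20.4%). It was in 700 of 2238 genes that rose (31.3%), in 279 of 2702 that fell (10.3%) and in 20.96% of genes not called. By size of change the share climbed from 7.53% of genes under −4 on the log2 scale to 30.8% of genes between 1 and 2, and was 26.7% at 2 and over. AATAAA stood in the same window in 44.5% and 74.3% of the genes at the first and the sixth of these steps. As TTTTAAT can share its AAT with AATAAA, the shares are not independent of each other. The base composition moved with them: the median GC content of the 3′ UTR was 40.5% in genes that rose and 47.5% in genes that fell. The part of base composition in the difference was not tested. Without the second NSN GV oocyte the shares were 32.1% and 10.3%, and without the third NSN-MII oocyte 30.9% and 10.6%.

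Transcript length differed too. The median transcript was 4066 bases long in genes that rose, 2123.5 in genes that fell and 3069 in all genes tested, and the median 3′ UTR 1545, 522 and 1003 bases. Of genes with transcripts under 1000 bases, 64.5% fell and 4.82% rose, and of those of 8000 bases and over, 5.84% fell and 40.7% rose. The median log2 fold change was −2.43 in the shortest and 0.96 in the longest class. The second NSN GV oocyte departed from the others of its stage by length as well, with median deviations from the GV mean of 0.48 in the shortest and −0.38 in the longest class on the log2 scale. Without that oocyte the medians of the shortest and longest class were −2.17 and 0.75, and without the third NSN-MII oocyte −2.21 and 0.96. The part of length in the differences between gene lists was not tested.

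**Figure D3:**
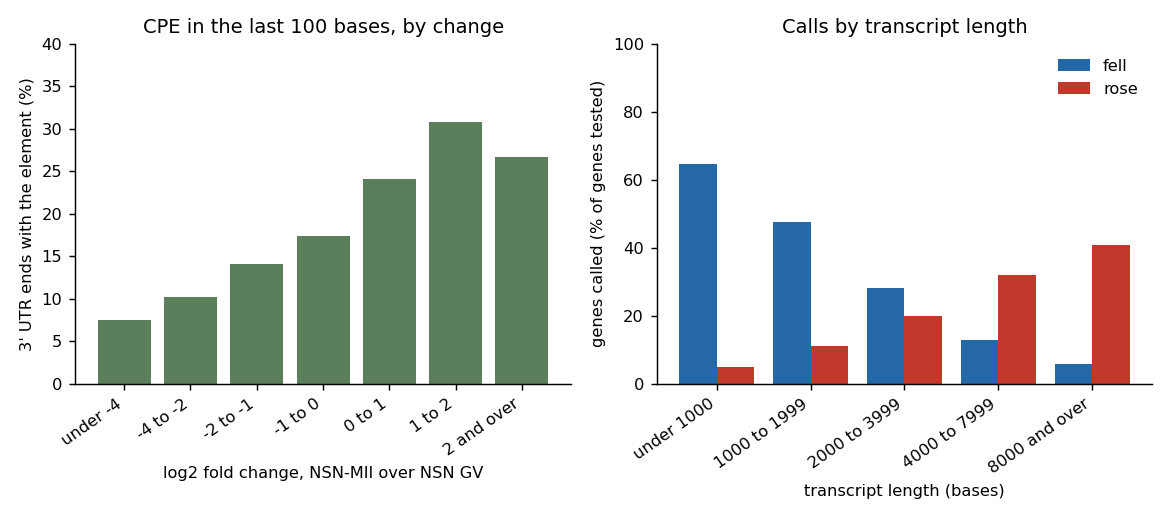
Left, the share (%) of 3′ UTR ends that hold TTTTAT or TTTTAAT (CPE) in the last 100 bases, by class of log2 fold change, NSN-MII over NSN GV. Right, the share (%) of genes tested that fell (blue) or rose (red), by length of the transcript; the element grows more frequent from 7.53% to 30.8%, and with length the calls turn from 64.5% lower to 40.7% higher.

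Of 36 genes of the meiotic cell cycle tested, 11 rose (30.6%) and 7 fell (19.4%), against 21.7% and 28.7% of all genes, with a median of 0.53. Of the partners of CDK1, Ccnb1 rose, as above. Cyclin A2 (Ccna2) was at 183, 87.4 and 243 CPM at GV and 474, 640.1 and 827 CPM at MII (log2 fold change 1.92, standard error 0.39, adjusted p = 0.0025), and Cks1b and Cks2 rose by 1.31 and 1.09 on the log2 scale. Cdk1 itself fell, as did its phosphatases Cdc25b, from 84.2, 83.3 and 102 CPM at GV to 14.2, 14.2 and 6.21 CPM at MII (log2 fold change −2.95, standard error 0.39, adjusted p = 0.000174), and Cdc25c (−4.24), and its inhibitory kinase Wee1 (−1.85). The oocyte form of that kinase, Wee2, was at 806, 1025 and 1331 CPM at GV and 1402, 1552 and 2212 CPM at MII, and was not called (adjusted p = 0.0736, edgeR), although the stages did not overlap. The cyclins Ccnb2 and Ccnb3 and the kinase Plk1 were not called either, with log2 fold changes of 0.64, 0.42 and −0.15. Pde3a, the phosphodiesterase that Cilostamide inhibits, rose by 1.21, Mastl by 1.11 and the MAPK kinase Map2k1 by 1.61.

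**Figure D4:**
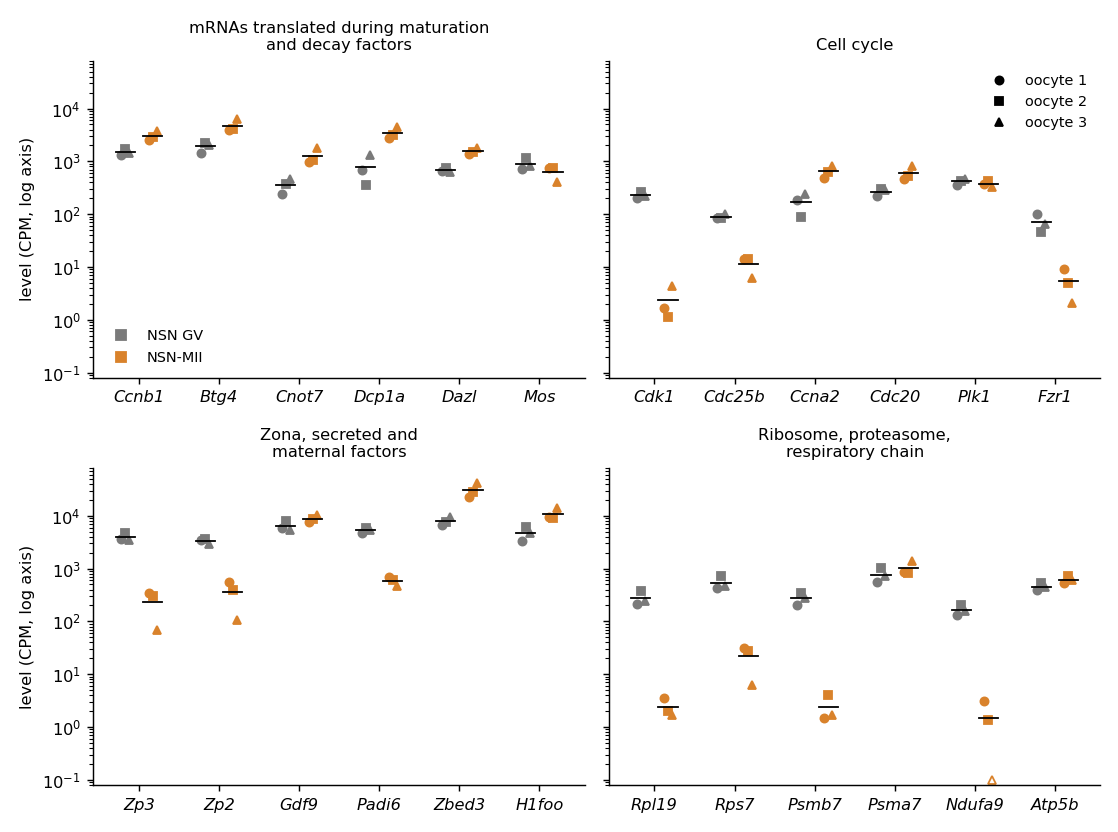
Levels (CPM, log axis) of 24 named genes in each NSN GV (grey) and NSN-MII (orange) oocyte; circles, squares and triangles are oocytes 1, 2 and 3 of each stage, which are not paired, black lines are group means, and an open symbol at the foot marks a value of 0. Ccnb1, Btg4, Cnot7 and Dcp1a lie higher at MII, Cdk1, Cdc25b, Zp3, Rpl19 and Psmb7 far lower, while Gdf9, Plk1 and Psma7 overlap between stages.

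The anaphase-promoting complex had 3 rises (16.7%) and 7 falls (38.9%) among 18 genes, against 21.7% and 28.7% of all genes (median −0.63). Its activators moved apart: Cdc20, which acts in M phase, was at 218, 297 and 281 CPM at GV and 468, 523 and 830.3 CPM at MII (log2 fold change 1.19, standard error 0.30, adjusted p = 0.00783), and Fzr1, which acts in prophase arrest, at 103, 45.1 and 66.4 CPM at GV and 9.33, 4.90 and 2.07 CPM at MII (log2 fold change −3.69, standard error 0.55, adjusted p = 0.000396). Among the core subunits, Cdc27 (log2 fold change 1.47) and Anapc10 (1.26) rose, and Anapc2 (−3.09), Anapc15 (−2.09), Anapc7 (−1.76), Anapc11 (−1.32) and Anapc4 (−0.98) fell. The ubiquitin-conjugating partner Ube2c fell as well (−2.28). Spindle checkpoint and kinetochore genes had 12 rises and 12 falls of 33 (36.4% each way, against 21.7% and 28.7% of all genes). Cenpe, the kinetochore motor, rose most, from 149, 179 and 325 CPM at GV to 654, 598 and 874 CPM at MII (log2 fold change 1.70, standard error 0.35, adjusted p = 0.00246), and Mad2l1 (1.26) and the cohesin protectors Sgo1 (1.08) and Sgo2a (1.45) rose as well. Bub1b, the checkpoint kinase with the most counts of this list, rose by 0.85, a call lost with library totals in place of TMM and when the first or second oocyte of either stage was left out. Zwilch (−2.44), Birc5 (−2.34), Aurkb (−2.33), Bub1 (−1.86) and Bub3 (−1.77) fell. The Aurora kinases of the oocyte differed: Aurkc was at 197, 312 and 279 CPM at GV and 504, 525 and 707 CPM at MII, a rise (log2 fold change 1.14, standard error 0.29, adjusted p = 0.00772), whereas Aurka was at 251, 399.5 and 389 CPM at GV and 119, 154 and 251 CPM at MII, a fall (log2 fold change −0.99, standard error 0.34, adjusted p = 0.031) with the third NSN-MII oocyte just inside the GV range. It was not called without the second or the third NSN GV oocyte or the first or second NSN-MII oocyte. Without the first NSN GV oocyte, 7 rather than 12 genes of the list rose.

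Spindle and motor genes had 12 rises (32.4%) and 8 falls (21.6%) of 37, against 21.7% and 28.7% of all genes. The central spindle kinesin Kif23 rose by 1.34, the pole protein Numa1 by 1.12, the microtubule polymerase Ckap5 by 1.49 and Cep192 by 1.96. Cep192, at 34.5, 8.10 and 64.5 CPM at GV, was not called without the first NSN GV oocyte. Tacc3, of the liquid-like spindle domain, had the most counts and fell from 1756, 2666 and 2498 CPM at GV to 351, 203 and 339 CPM at MII (log2 fold change −2.96, standard error 0.33, adjusted p = 6.47e-05). The chromokinesin Kif22 fell by 3.14 on the log2 scale, Aspm by 2.16 and the gamma-tubulin complex protein Tubgcp2 by 4.11.

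Genes for the ribosome, the respiratory chain and the proteasome fell in most cases. Of 78 cytosolic ribosomal protein genes tested, 0 rose and 71 fell (91.0%), against 21.7% and 28.7% of all genes. Their median log2 fold change was −4.06, against −0.08 over all genes. Their summed share of counts was 1.03%, 1.63% and 0.943% in the NSN GV oocytes and 0.183%, 0.150% and 0.0754% in the NSN-MII oocytes. Rps7, with the most counts, was at 437, 730.4 and 468 CPM at GV and 31.00, 28.04 and 6.38 CPM at MII (log2 fold change −4.63, standard error 0.55, adjusted p = 8.91e-05). Rpl19 (chromosome 11, 98026710 to 98030492) was at 211, 382 and 240.1 CPM at GV and 3.51, 2.01 and 1.72 CPM at MII (log2 fold change −6.81, standard error 0.44, adjusted p = 1.37e-05). Rpl12, at 3.69 ± 0.914 CPM (SD, n = 3) at GV, had no count in any NSN-MII oocyte and is at least 8.79-fold lower there, taking 3 counts as the floor in each library. Those not called included Rps28 (log2 fold change −0.70), Rplp2 (−0.70), Rpl41 (−0.62), Rpl15 (−0.49) and Rps15a (−0.33). As many ribosomal protein genes have near-identical copies in the genome, how reads were divided among them is uncertain. At the RefSeq start site (GRCm38.p6), C followed by 4 pyrimidines, the beginning of a TOP motif that ties translation to growth signals, stood in 14 of 57 cytosolic ribosomal protein genes (24.6%) with a start in that table, in 3.11% of genes tested, in 2.72% of genes that rose and in 3.08% of genes that fell. The letters were sought at the annotated base only, so a motif at a start annotated a few bases off was missed. The shares are thus those of annotated starts, not of the mRNAs. The annotated starts of Rpl12, Rpl19, Rpl41 and Rps7 did not begin with these letters. The start of Rps27, which did, is shown, 15 bases on either side of the start at chr3:90213634-90213663 on the minus strand, with the pyrimidine run in capitals.

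Rps27: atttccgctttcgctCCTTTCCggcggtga

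Of 77 mitochondrial ribosomal protein genes, 58 fell (75.3%) and 1, Mrpl3, rose, against 28.7% and 21.7% of all genes, with a median of −2.67. Mrpl3 was not called without the first NSN GV oocyte, and 2 genes of the list rose without the second. None of the 69 with a start in the table began with the TOP letters. Mrpl33 fell most, from 29.8, 69.03 and 26.1 CPM at GV to 0.606, 0.503 and 0 CPM at MII (log2 fold change −6.66, standard error 0.74, adjusted p = 6.27e-05). Mrpl18, with the most counts, was at 168, 310.3 and 223 CPM at GV and 195, 194 and 215 CPM at MII and was not called. Nuclear genes of the respiratory chain and ATP synthase had 58 falls (76.3%) and 1 rise of 76 (median −2.80), with 2 rises without the second NSN GV or the third NSN-MII oocyte. Ndufa9 (chromosome 6, 126821721 to 126849136), of complex I, was at 129, 204 and 159 CPM at GV and 3.15, 1.38 and 0 CPM at MII (log2 fold change −6.67, standard error 0.73, adjusted p = 5.65e-05). Its complex I partner Ndufa10 rose, from 85.3, 132 and 88.6 CPM at GV to 216, 238 and 372 CPM at MII (log2 fold change 1.43, standard error 0.32, adjusted p = 0.00393), and Atp5b, the catalytic subunit of ATP synthase, was at 398, 525 and 441 CPM at GV and 543, 722 and 598 CPM at MII and was not called. The 26 falls among 37 proteasome genes (70.3%, median −2.55) included the core subunit Psmb7 (chromosome 2, 38588036 to 38644087), at 202, 339 and 280.1 CPM at GV and 1.45, 4.02 and 1.72 CPM at MII (log2 fold change −6.81, standard error 0.48, adjusted p = 1.37e-05). The 3 proteasome genes that rose were the scaffolds Psmd1 (1.43) and Psmd11 (0.79) and the activator Psme4 (1.92). Psma7, with the most counts, was at 565, 1004 and 714 CPM at GV and 869, 842 and 1397 CPM at MII, with overlap. Annotated transcripts of these lists were short, with medians of 882 bases for cytosolic and 1316 for mitochondrial ribosomal proteins, 870 for the respiratory chain and 1540 for the proteasome, against 3069 for all genes.

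**Figure D5:**
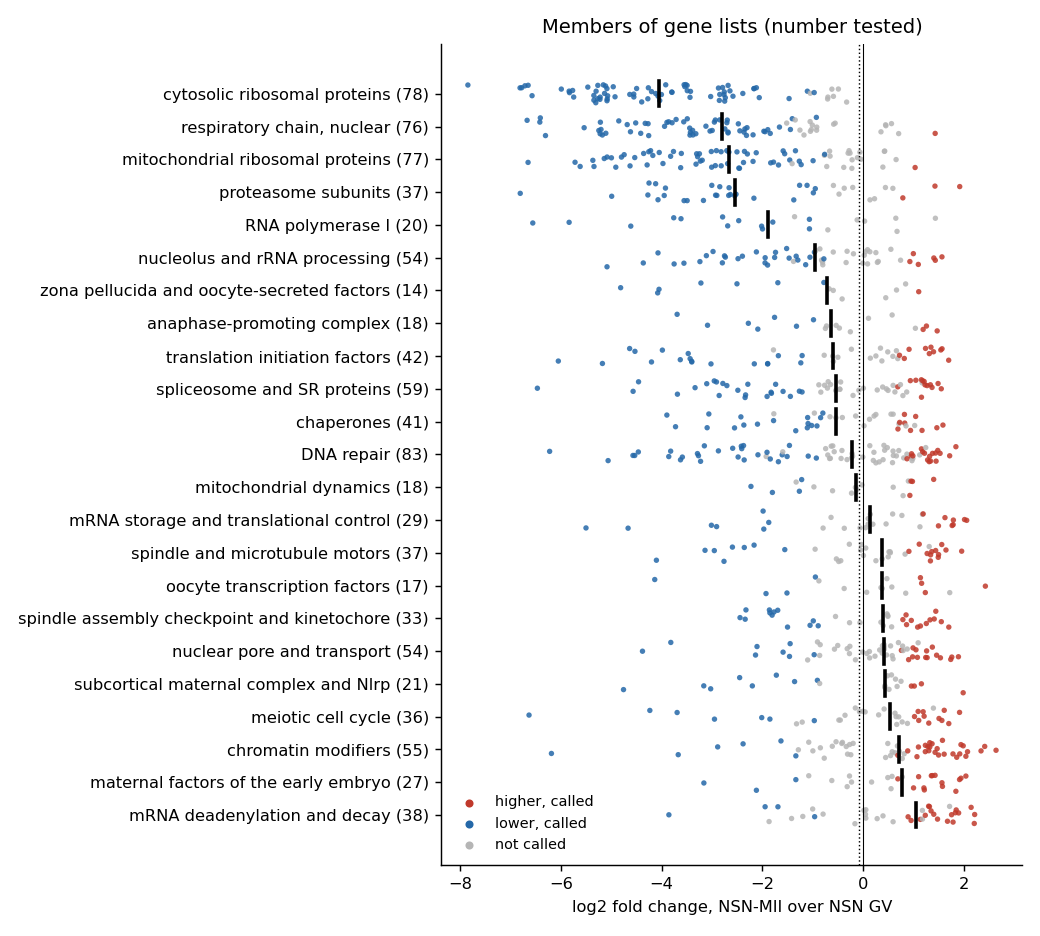
Each point is a member of a gene list by its log2 fold change, NSN-MII over NSN GV, red where it rose, blue where it fell and grey where not called; thick bars are list medians, the dotted line is the median of all genes tested (−0.08), and the number tested stands in brackets. Medians run from −4.06 for cytosolic ribosomal proteins to 1.05 for mRNA deadenylation and decay.

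The NSN state is named for a nucleolus that lacks the surrounding ring of chromatin. Of 54 genes of the nucleolus and rRNA processing, 27 fell and 6 rose (median −0.95), and of 20 genes of RNA polymerase I and its factors, some of them shared with other polymerases, 13 fell and 0 rose (median −1.90), against 28.7% and 21.7% of all genes. Emg1, an rRNA methyltransferase, fell from 216, 330.2 and 297 CPM at GV to 10.5, 11.2 and 2.76 CPM at MII (log2 fold change −5.09, standard error 0.50, adjusted p = 3.4e-05). Polr1d, a polymerase I subunit, went from 348 to 28.3 CPM (log2 fold change −3.62) and Ubtf, which binds rDNA, from 32.9 to 5.88 CPM (−2.47). Npm1, a shuttling nucleolar protein, rose from 482, 756 and 658 CPM at GV to 1057, 1165 and 1390.5 CPM at MII (log2 fold change 0.93, standard error 0.28, adjusted p = 0.0181), a call lost without the first NSN GV oocyte. Without it 3 rather than 6 genes of the first list rose. Ncl was at 570.0 and 568 CPM on average and was not called. Fbl, fibrillarin, was at 180.3, 57.7 and 123 CPM at GV and 16.96, 5.41 and 32.1 CPM at MII (log2 fold change −2.74, standard error 0.60, adjusted p = 0.00371). Its values varied more than 3-fold within each stage, and all these oocytes carried injected FBL–GFP mRNA, whose reads cannot be told apart from those of the gene.

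Of 14 genes for the egg coat and for signalling between oocyte and follicle cells, 7 fell and 1 rose, against 28.7% and 21.7% of all genes (median −0.73). Zp3 (chromosome 5, 135980099 to 135988624), a zona protein, was at 3593, 4818 and 3413 CPM at GV and 346, 298 and 67.2 CPM at MII (log2 fold change −4.05, standard error 0.55, adjusted p = 0.000212), and Zp2 at 3495, 3609.9 and 2868 CPM at GV and 562, 401 and 106 CPM at MII (log2 fold change −3.22, standard error 0.52, adjusted p = 0.00066). Both were lowest in the third NSN-MII oocyte. Zp1 was not called: it was at 1418, 1652 and 1290.2 CPM at GV and 1462, 1106 and 167 CPM at MII, where the same oocyte was the lowest and the first NSN-MII oocyte lay within the GV range. Gdf9, the oocyte growth factor, was at 5958, 7926 and 5378 CPM at GV and 7520.4, 8649 and 10168 CPM at MII and Bmp15 at 2265, 1835 and 2782 CPM at GV and 2006, 2163 and 991 CPM at MII, neither called. Fgf8 (log2 fold change −4.82) and the fusion genes Cd9 (−4.08) and Izumo1r (−2.50), the latter the egg receptor for sperm, fell. Kit, the receptor of Kit ligand, was the rise (1.11), and was not called under 7 of 17 alternative settings.

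The subcortical maternal complex, a protein lattice under the egg membrane needed for cleavage, was represented by 6 genes named here. Of these, 5 fell and 1 rose, against 28.7% and 21.7% of all genes, but this group was not one of the gene lists. Of all 21 genes of this complex and related families, 8 fell (38.1%) and 4 rose (19.0%), against 28.7% and 21.7% of all genes, with a median of 0.43. Padi6 was at 4692, 5765 and 5341 CPM at GV and 682, 605 and 475 CPM at MII (log2 fold change −3.16, standard error 0.30, adjusted p = 2.76e-05). Khdc3 fell from 1034, 455 and 527 CPM at GV to 37.5, 31.3 and 5.17 CPM at MII (log2 fold change −4.76, standard error 0.66, adjusted p = 0.000245). Tle6 (−3.03), Ooep (−2.20) and Nlrp5 (−1.36) fell too. Zbed3 (chromosome 13, 95323612 to 95337841), another member of the complex, went the other way, with 6607, 7479.9 and 9455 CPM at GV and 22984, 27891 and 42589 CPM at MII (log2 fold change 1.99, standard error 0.33, adjusted p = 0.000849). Among the other Nlrp genes, Nlrp4a (1.02) and Nlrp4g (0.96) rose and Nlrp2 (−1.72) and Nlrp14 (−0.91) fell. The Nlrp genes form a family of related sequence, in which counts of single members are less certain.

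Of 27 maternal factors that act in the early embryo, 14 rose and 3 fell, against 21.7% and 28.7% of all genes (median 0.78). H1foo, the oocyte linker histone, was at 3278, 6116 and 4673 CPM at GV and 9577, 8922 and 14023 CPM at MII (log2 fold change 1.21, standard error 0.33, adjusted p = 0.0109). Tet3, which oxidizes methylcytosine in the paternal pronucleus, was at 290.5, 186 and 489.8 CPM at GV and 1203, 1122 and 1397 CPM at MII (log2 fold change 1.95, standard error 0.36, adjusted p = 0.00153). Dnmt3b (2.04), Yap1 (1.92), Nfya (1.84) and Sall4 (1.10) rose as well (log2 fold changes). Npm2, which unpacks sperm chromatin, fell from 1016, 1508 and 1039.6 CPM at GV to 292, 224 and 305 CPM at MII (log2 fold change −2.12, standard error 0.29, adjusted p = 0.000252), and Ube2a and Dnmt3l fell by 3.16 and 1.33 on the log2 scale. Dppa3, which protects the maternal genome from demethylation, was at 1366, 2547 and 1787 CPM at GV and 2182, 2363 and 3837 CPM at MII, with overlap, and was not called. Of 17 oocyte transcription factors, 4 rose and 4 fell (23.5% each way), near the shares of all genes. Figla was at 41.6, 49.2 and 25.4 CPM at GV and 3.27, 1.51 and 1.72 CPM at MII (log2 fold change −4.14, standard error 0.49, adjusted p = 9.07e-05), and Nobox at 846, 947 and 576 CPM at GV and 227, 296 and 99.5 CPM at MII (log2 fold change −1.93, standard error 0.40, adjusted p = 0.00272), while Obox2, with the most counts, overlapped between stages. Sohlh2, an early oocyte factor, rose from 5.07, 10.4 and 11.97 CPM at GV to 26.5, 16.2 and 106 CPM at MII (log2 fold change 2.43, standard error 0.66, adjusted p = 0.0109), with a log2 fold change of 1.22 and no call without the third NSN-MII oocyte. Nor was Sohlh2 called without the first NSN GV oocyte. In place of 4 transcription factors, 1 rose without the first NSN GV oocyte, and 2 rose without the second NSN GV oocyte or without any 1 of the NSN-MII oocytes.

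Of 55 chromatin modifiers, 26 rose (47.3%) and 6 fell (10.9%), against 21.7% and 28.7% of all genes, with a median of 0.72, and with library totals in place of TMM 15 rose. The H3K4 methyltransferases Kmt2c and Kmt2d rose by 2.08 and 1.92, the H3K27 demethylase Kdm6b by 2.34, and the Polycomb genes Suz12 and Ezh2 by 1.99 and 1.10. Kdm1b, the demethylase needed for maternal imprints, was at 466, 133 and 209 CPM at GV and 802, 987 and 621 CPM at MII (log2 fold change 1.58, standard error 0.43, adjusted p = 0.0107). Among the falls were the deacetylases Sirt2 (−6.19, from 17.6 CPM) and Sirt6 (−2.38) and the acetyltransferase Kat8 (−3.67). Dnmt1 was at 2446, 704 and 1403 CPM at GV and 1303, 508 and 345 CPM at MII and varied more than 3-fold within each stage. The annotated transcripts of this list were long, with a median of 4658 bases.

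Of 83 DNA repair genes, 18 rose (21.7%) and 29 fell (34.9%), against 21.7% and 28.7% of all genes, with a median of −0.23. Among the rises were genes of recombination and the damage checkpoint. Brca2 went from 113, 77.3 and 180.3 CPM at GV to 442, 408 and 483 CPM at MII (log2 fold change 1.84, standard error 0.34, adjusted p = 0.00138), Chek1 from 569 to 1415 CPM (1.31), and Trp53bp1 and Rad50 rose by 1.45 and 1.18. The end-joining pair Xrcc5 (−3.59) and Xrcc6 (−3.63), Rpa2 (−4.57), H2afx (−2.48) and Rad51c (−2.36) fell. H2afx and Rad51c were named because earlier results of these data had them lower in NSN-MII oocytes, so their falls are no independent evidence. Ercc1, a nucleotide excision repair gene with the largest fall of the list, had 14.02, 16.1 and 14.4 CPM at GV and at most 3 counts in any NSN-MII oocyte, a ratio of counts over the group of 81.4 (95% interval 31.5 to 300.2, counting error only). Genes of mitochondrial dynamics had 4 rises and 4 falls of 18 (22.2% each way), near the shares of all genes. The fission GTPase Dnm1l rose (1.40) and its membrane receptors Mff (−2.23), Fis1 (−1.80) and Mief1 (−1.22) fell. Of the 4 rises, 1 was left without the first NSN GV oocyte.

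Between genes, levels can be compared only per length, in FPKM as the authors deposited them. Only the 18939 genes with deposited counts were ranked, and 30747 further features with FPKM were left out. The 10 highest genes on average in NSN GV oocytes were Elobl, H1foo, Ubb, Zbed3, Ldhb, Gdf9, Uchl1, Bcl2l10, Zp3 and Dppa3, in the order of their mean FPKM. In NSN-MII oocytes they were Zbed3, H1foo, Bcl2l10, Tcl1, Spin1, Pttg1, Gdf9, Dppa3, Mphosph6 and Hsp90aa1. Zbed3 had 3857, 3615 and 4703 FPKM in the 3 NSN GV and 11794, 13996 and 17454 FPKM in the 3 NSN-MII oocytes, and H1foo 3649, 5671 and 4435 and 9386, 8541 and 10969 FPKM. Among the genes that left the list, Ubb, a polyubiquitin gene, was at 3582, 5335 and 4259 FPKM at GV and 433, 502 and 217 FPKM at MII. Elobl was at 4154, 5992 and 4202 and 431, 418 and 124 FPKM. In counts, both fell, with log2 fold changes of −3.46 and −3.90. Among those that entered it, Spin1 (chromosome 13, 51100880 to 51152546), a histone reader of the spindle, rose from 5483, 4217 and 7095 CPM at GV to 17834, 22361 and 33955 CPM at MII (log2 fold change 2.14, standard error 0.35, adjusted p = 0.00073) and Tcl1, a co-activator of AKT, by 1.79.

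Oocytes of the same stage differed in part by which one was set apart from the others. Among genes with at least 50 CPM, those with the largest spread of log2(CPM + 1) at GV were Tuba3b, Snrnp200, Ppip5k2, Fancd2 and Tug1, with SDs from 2.10 to 1.78. Snrnp200, a spliceosomal helicase, was at 107, 13.4 and 166 CPM and Tug1, a long noncoding RNA, at 89.8, 13.4 and 148 CPM. In 4 of these 5 the second NSN GV oocyte was the lowest, and in Tuba3b it was the highest, with 8.20, 165 and 49.04 CPM. At MII the largest spread was that of Dppa5a, Mapk3, Snhg14, Rpl41 and Miox, with SDs from 2.24 to 1.78, and all 5 were lowest in the third NSN-MII oocyte. Mapk3, the kinase ERK1, was at 265, 176 and 17.9 CPM at MII and 324, 461 and 362 CPM at GV. Leaving out the second NSN GV oocyte gave 4670 calls, and leaving out the third NSN-MII oocyte 4934, of which 4495 and 4654 were among the 5359.

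Whether maturation changed mRNAs differently in NSN and in SN oocytes was tested as an interaction of stage and type over all 13 libraries (3 SN GV and 4 SN-MII oocytes added). It was called for 2 of 11375 genes (0.0176%) by edgeR, while 606 had an unadjusted p under 0.05. That is close to the share of genes that a threshold of 0.05 passes when no gene differs. DESeq2 called 39, and with 1 oocyte left out edgeR called 0 to 12, the most without the third NSN-MII oocyte. The 2 genes were Mff (chromosome 1, 82724890 to 82752394), a receptor of the mitochondrial fission machinery, and Ube2t (chromosome 1, 134962565 to 134974162), the ubiquitin-conjugating enzyme of the Fanconi anemia pathway. Mff was at 476, 608 and 705 CPM in NSN GV and 104, 118 and 160.3 CPM in NSN-MII oocytes (log2 fold change −2.23, standard error 0.30, adjusted p = 0.000205), without overlap. In SN oocytes, on the scale of the joint fit, the GV mean was 675 ± 70.98 CPM (SD, n = 3) and the MII mean 863 ± 289 CPM (SD, n = 4), with a change of 0.35 in log2 (standard error 0.24) that was not called. Ube2t was at 473, 729.8 and 649 CPM in NSN GV and 39.4, 55.5 and 32.6 CPM in NSN-MII oocytes (log2 fold change −3.86, standard error 0.34, adjusted p = 2.04e-05), and for SN oocytes the means were 703 ± 58.9 CPM (SD, n = 3) for GV and 498 ± 323 CPM (SD, n = 4) for MII, with a change of −0.50 in log2 (standard error 0.33), also not called.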

How the data were processed

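Single oocytes were profiled by SMART-seq2 with Tn5 libraries. According to the study's methods and the submitters' processing notes, reads were trimmed (Trim Galore 0.4.4), mapped to mm10 (Bowtie2 2.3.5) and quantified with RSEM 1.2.28, and the authors normalized counts with DESeq2 1.20.0. The authors deposited expected counts per gene symbol, which need not be whole (1 table for GV, 1 for MII, joined here by symbol and rounded), and FPKM, deposited for all libraries in 1 table, normalized for gene length and depth. No molecular identifiers or use of strand were stated, and no spike-in or batch, so batch and stage cannot be told apart.

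Genes passing filterByExpr were tested with edgeR 4.0.16 (R 4.3.3), using TMM factors and the quasi-likelihood test with Benjamini-Hochberg adjustment over all genes, on the 6 NSN libraries alone (adjusted p threshold 0.05). The interaction of stage and type used all 13. Alternatives were DESeq2 1.42.0, limma 3.58.1 on log2(FPKM + 1) and log2(FPKM + 0.1), other scalings and filters, thinned counts, a block for replicate number and omission of each oocyte. The scripts were tested on simulated counts. No pair of libraries agreed within counting noise. Replicate numbers shared by GV and MII libraries were not taken as pairs. Of 18939 symbols, 18887 were found in GENCODE M21 (GRCm38), which gave positions, lengths and 3′ UTRs, and start sites were taken from RefSeq. Lengths and 3′ UTRs are those of 1 protein-coding transcript per gene, the longest, with transcripts marked as principal preferred. It need not be the transcript that the oocytes held. Mitochondrially encoded mRNAs were not analysed here, and some members of the gene lists are not reported here by name.

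The libraries compared and the gene lists were chosen with earlier results of these data known. Genes were named by rule: the 10 largest rises and falls with non-overlapping groups and a mean of at least 20 CPM, chosen regulators, the largest rise, largest fall and most counts of each list, the 5 genes of largest spread in each stage among those with at least 50 CPM, and the 10 highest by FPKM among genes with deposited counts. The chosen regulators included H2afx, Rad51c and Mff, picked because earlier results of these data had them lower in NSN-MII oocytes. Further list members were chosen as examples after their values were seen.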

Additional observations from a re-analysis of the deposited data

Results flagged for a closer look

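For 2 genes the change from GV to MII differed between NSN and SN oocytes by the test of the interaction over all 13 libraries (edgeR, adjusted over 11375 genes). For Mff the change in NSN oocytes minus that in SN oocytes came to −2.57 in log2, with a standard error of 0.36 and an adjusted p of 0.0201. In SN oocytes alone its log2 fold change was 0.35 (adjusted p = 0.220). For Ube2t the difference was −3.35 (standard error 0.51, adjusted p = 0.0332), with a log2 fold change of −0.50 in SN oocytes (adjusted p = 0.217). The fourth SN-MII oocyte had the highest level of both, 1298 CPM of Mff and 982 CPM of Ube2t, and without it the differences were −2.31 and −2.79, both called. When 1 oocyte was left out, the adjusted p ranged from 0.00598 to 0.138 for Mff and from 0.00325 to 0.195 for Ube2t. Mff was not called without any 1 of the SN GV oocytes, the third NSN GV oocyte or the second NSN-MII oocyte. Ube2t was not called without any 1 of the SN GV or NSN GV oocytes, or without the first or second NSN-MII oocyte.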

How the results depend on the processing

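The number of genes called, 5359, ranged from 4308 (without the second NSN-MII oocyte) to 6403 (all 13 libraries in 1 fit), and from 4308 to 4934 with 1 oocyte left out. DESeq2 called 5711, of which 5339 were shared. The share of calls that were higher, 43.1%, was 37.8% and 37.3% with limma on FPKM. In each limma fit, 10 of the genes called by edgeR had a fold change of the opposite sign, whether or not limma called them. With the replicate number as a block, 5254 genes were called. Deviations of same-numbered oocytes correlated at 0.193, 0.0286 and 0.212, and the second NSN-MII oocyte correlated best with the first NSN GV oocyte, so the numbers were not taken as pairs. Of 107 named genes called, 94 were called under each setting in which they were tested, which for a few genes was not each of 17. The number of genes with a differing stage change in NSN and SN oocytes, 2, was 39 with DESeq2, 6 without a filter, and 0 to 12 with 1 oocyte left out, the highest without the third NSN-MII oocyte.

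Among named genes, the sign turned only in genes that were not called. Cpeb1 went to −0.25 with library totals, −0.0494 at a mean CPM of at least 10, −0.0724 and −0.0725 in the limma fits, and ranged from −0.18 to 0.2606 with 1 oocyte left out. Ncl went to 0.0101 with DESeq2 and 0.01 with its size factors, 0.11 with upper-quartile factors, 0.0072 without a filter, 0.002 with the block and 0.0035 in the fit of 13 libraries, and ranged from −0.1354 to 0.088 with 1 oocyte left out. Hsp90aa1 went to −0.0451 with library totals. Mrpl18 ranged from −0.4068 to 0.0369 and Taf1a from −0.2807 to 0.0083 with 1 oocyte left out. The cause was not tested.

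Depth limits genes near the floor: 139 genes that fell had at most 3 counts in each NSN-MII oocyte, and 8306 of 18939 genes were not tested.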

Other observations

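Several further gene groups of protein synthesis and transport changed in both directions. Of 42 translation initiation factors, 10 rose (23.8%) and 18 fell (42.9%), against 21.7% and 28.7% of all genes, with a median log2 fold change of −0.60 against −0.08 over all genes. Most subunits of eIF3 that were called fell, among them Eif3m (−5.18), Eif3l (−4.64) and Eif3d (−3.99), while the scaffold subunit Eif3a rose (1.57). The RNA helicase cofactor Eif4h fell from 288, 173 and 115 CPM in the NSN GV oocytes to 2.54, 5.03 and 0.862 CPM in the NSN-MII oocytes, and the helicase Eif4a1 rose from 201, 261 and 221 to 609, 401 and 690.0 CPM. Of 59 spliceosome genes, 13 rose (22.0%) and 23 fell (38.98%), with a median of −0.54, and 8 rose with library totals in place of TMM. Examples among the falls were Snrpc (−4.57), Snrpd2 (−4.46) and Lsm3 (−3.69), and among the rises Srsf4 (1.49) and Sf3b1 (1.23). Bud31, with the deepest fall, was at 247, 490.2 and 307 CPM at GV and 5.09, 3.77 and 2.76 CPM at MII.

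Of 41 chaperones, 9 rose (21.95%, near the 21.7% of all genes) and 17 fell (41.5%, against 28.7%), with a median of −0.54. The constitutive HSP70 gene Hspa8 fell from 1089.5, 1507 and 1510.4 to 125, 113 and 36.6 CPM, and the chaperonin subunits Cct5 (−3.73), Cct3 (−3.10), Tcp1 (−2.55) and Cct2 (−2.43) fell too, while Cct4 (−0.97), Cct6a (−0.54), Cct7 (−0.15) and Cct8 (0.13) were not called. Of the mitochondrial matrix chaperones, Hspa9 (0.82) and Hspd1 (0.73) rose and Hspe1 (−0.92) and Dnaja3 (−1.10) fell. Without the second NSN-MII oocyte 4 rose and 11 fell, and with library totals 5 rose. Of 54 genes of the nuclear pore and nuclear transport, 15 rose (27.8%) and 8 fell (14.8%), against 21.7% and 28.7% of all genes. The median was 0.41. The importin Kpna2 was at 1241, 1834 and 1952 CPM at GV and 93.6, 79.2 and 68.1 CPM at MII, the deepest fall of the list, and Ipo8 rose most (1.90). The pore basket genes Tpr (1.46) and Nup153 (1.26) rose. In place of 15, 8 rose with library totals or without the first NSN GV oocyte, and 9 without the first NSN-MII oocyte.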
